A study of Mus musculus with 4 samples.

Results

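The genes described here are the 4 TCF/LEF transcription factor genes of the mouse (Lef1, Tcf7, Tcf7l1 and Tcf7l2) and 5 genes that WNT signalling is known to induce or that restrain it (Axin2, Sp5, Nkd1, Nkd2 and Notum), 9 of 21887 protein-coding genes on the main chromosomes. They were taken by name, and their FOXL2 peaks were those whose centre lay in the gene or within 100 kb of either end, 27 of the 11438 peaks deposited. FOXL2, a forkhead transcription factor of granulosa cells, was mapped by ChIP-seq, which sequences the DNA recovered with an antibody to a protein. Whole ovaries of CD1 mouse embryos, an outbred stock, were taken at E14.5 (embryonic day) without the mesonephros, and no genetic change or treatment is labelled. The 2 FOXL2 ChIP samples are labelled as independent experiments on different pools, with 80 to 100 ovaries per ChIP, but the protocol also calls the chromatin shared, so whether they are fully separate preparations is unclear. The 2 input samples, chromatin without antibody, came from the same strain, tissue and stage. Since whole organs were pooled, a peak cannot be assigned to a cell type, and peak positions alone give no check of the labelled tissue.

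In canonical WNT signalling, a secreted WNT ligand stops a cytoplasmic destruction complex from degrading beta-catenin, which then enters the nucleus and acts through the DNA-binding TCF/LEF proteins. Without beta-catenin these proteins recruit Groucho/TLE corepressors. Several genes that the pathway switches on encode its own inhibitors, so that the signal limits itself. In the fetal ovary, RSPO1, WNT4 and beta-catenin act in the same direction as FOXL2, towards granulosa and against Sertoli cell fate.

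FOXL2 peaks lay inside or at the border of 7 of the 9 genes (77.8%, against 38.3% of all 21887 protein-coding genes). The exceptions were Nkd1 and Notum. With lncRNA and other genes also supplying borders, Tcf7l2 and Nkd2 had no peak counted as inside or at their own border. The median gene length was 36.9 kb for the 9 genes and 17.2 kb for all protein-coding genes, and the part of length was not tested. Peaks came from 1 list for both ChIP samples, with positions on mm10 and no height, score or read count, so no peak has a replicate error, depth is unknown, and binding too weak for the authors' threshold would not appear. No test over samples is possible, and the counts below are given beside the same counts over all protein-coding genes. Each of the 27 peaks was put in 1 of 4 classes. A peak at the gene's own border lay within 1 kb of an end of the gene with no other protein-coding border nearer (4 peaks), and an inside peak lay in the gene over 1 kb from every such border (4 peaks). Peaks outside the gene were nearest to it (3 peaks) or, like any peak at another gene's border, counted for another gene (16 peaks).

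**Figure D1:**
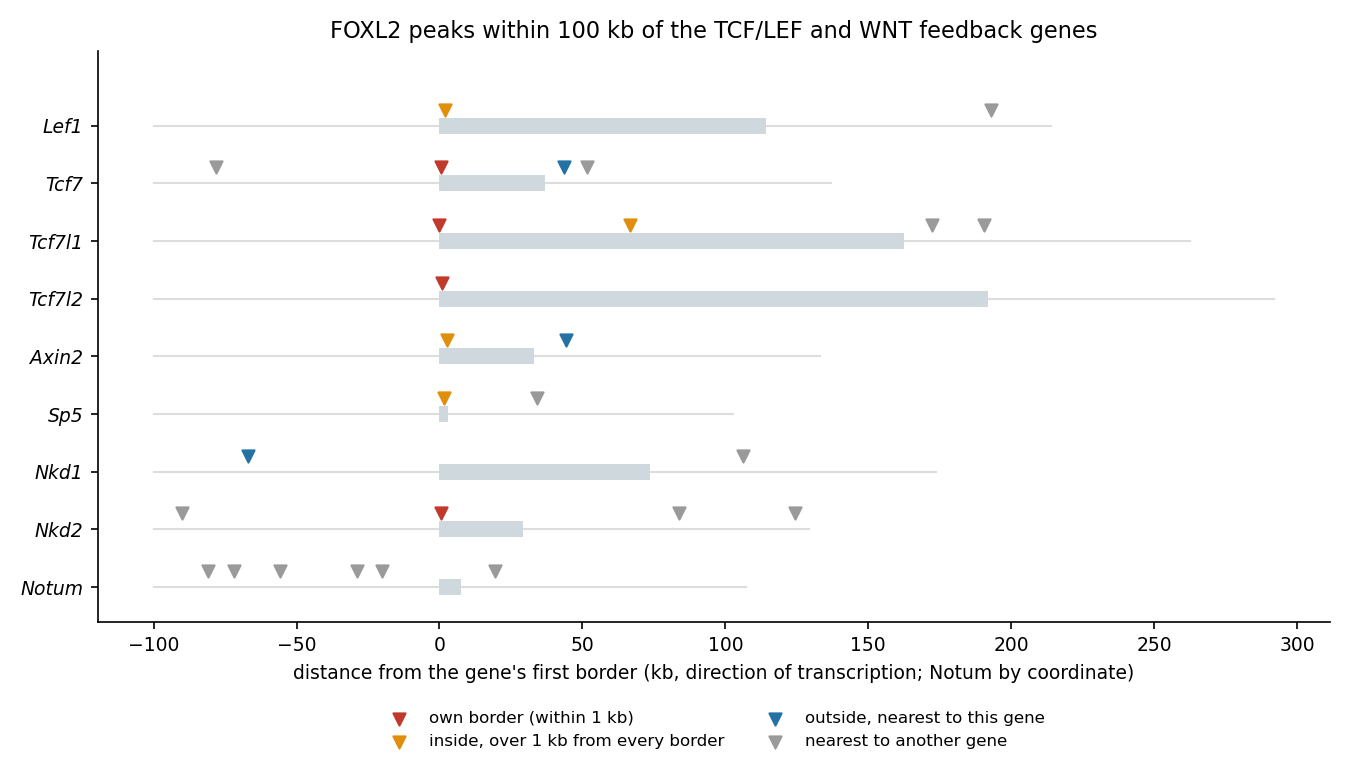
FOXL2 peaks (triangles, at the peak centre) within 100 kb of each gene, against distance from the gene's first border in kb; grey bars are the annotated genes and colours give the class of a peak. Tcf7, Tcf7l1, Tcf7l2 and Nkd2 have a peak at their own border, Lef1, Tcf7l1, Axin2 and Sp5 have one inside, and the 6 peaks around Notum are all nearest to other genes.

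Sequence from RefSeq (GRCm38.p6, a C57BL/6J assembly and not the CD1 animals) was matched by gene ID for 8 of the 9 genes, as 13 windows from 250 bases before to 50 after a listed start site. Notum was not matched. Of the 13 windows, 3 shared bases with a FOXL2 peak. The windows of Tcf7 and Tcf7l1 are shown because they are the ones most of whose length lies under a peak (206 and 184 of 300 bases), and capitals mark the bases under the peak. The Tcf7 window is chr11:52282965-52283264 and the Tcf7l1 window chr6:72788996-72789295, each on the minus strand and printed 5′ to 3′.
Tcf7 first listed start: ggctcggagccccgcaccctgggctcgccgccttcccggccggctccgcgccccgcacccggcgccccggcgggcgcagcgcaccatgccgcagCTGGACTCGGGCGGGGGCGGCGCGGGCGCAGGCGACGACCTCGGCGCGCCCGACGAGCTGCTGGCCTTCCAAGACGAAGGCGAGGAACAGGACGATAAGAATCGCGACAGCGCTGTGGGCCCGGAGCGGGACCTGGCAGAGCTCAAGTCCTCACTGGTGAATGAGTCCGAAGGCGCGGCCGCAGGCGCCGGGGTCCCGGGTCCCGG
Tcf7l1 start: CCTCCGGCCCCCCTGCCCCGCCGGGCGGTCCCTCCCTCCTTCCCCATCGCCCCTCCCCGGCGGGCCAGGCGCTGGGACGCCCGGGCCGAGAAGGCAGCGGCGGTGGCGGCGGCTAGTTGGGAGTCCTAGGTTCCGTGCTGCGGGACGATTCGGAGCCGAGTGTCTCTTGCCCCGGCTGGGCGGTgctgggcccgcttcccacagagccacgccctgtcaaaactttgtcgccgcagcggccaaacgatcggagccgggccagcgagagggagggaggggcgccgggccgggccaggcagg
The peak covered the start site itself in the Tcf7 window and ended before it in the Tcf7l1 window. Each window was rich in G and C (76.3% in Tcf7 and 75.3% in Tcf7l1, against a median of 56.3% over 21263 windows of protein-coding genes). Over the 1740 windows with at least 150 bases under a peak, as in these windows, the median was 65.3%.

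The windows were also searched, on both strands, for the letters of 5 short motifs. These were GTAAACA and ATAAACA of forkhead factors, CTTTGAT and CTTTGAA of TCF/LEF factors, and AAGGTCA, a nuclear receptor element. Of the 13 windows, 4 held a match. None of these 4 windows had a base under a peak, so no match in them could lie under one. The windows that shared bases with a peak held no match. Sequence under peaks outside the 13 windows was not searched. Of all 21263 windows, 17% held at least 1 of the 5 motifs, and 3.01% held GTAAACA, 3.92% ATAAACA, 3.22% CTTTGAT, 4.54% CTTTGAA and 4.08% AAGGTCA. The 3 windows shown next hold a match at or near a start site with a peak close by, and capitals mark the matching letters. They are chr11:52282546-52282845 on the minus strand (Tcf7), chr19:55741560-55741859 on the plus strand (Tcf7l2) and chr2:70474673-70474972 on the plus strand (Sp5).
Tcf7 second listed start: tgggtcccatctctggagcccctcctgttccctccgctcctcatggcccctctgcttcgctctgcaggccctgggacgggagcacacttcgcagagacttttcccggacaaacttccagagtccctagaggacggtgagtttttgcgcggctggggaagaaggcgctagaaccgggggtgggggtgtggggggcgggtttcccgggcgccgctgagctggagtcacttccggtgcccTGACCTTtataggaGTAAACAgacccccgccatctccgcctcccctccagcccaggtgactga
Tcf7l2 first listed start: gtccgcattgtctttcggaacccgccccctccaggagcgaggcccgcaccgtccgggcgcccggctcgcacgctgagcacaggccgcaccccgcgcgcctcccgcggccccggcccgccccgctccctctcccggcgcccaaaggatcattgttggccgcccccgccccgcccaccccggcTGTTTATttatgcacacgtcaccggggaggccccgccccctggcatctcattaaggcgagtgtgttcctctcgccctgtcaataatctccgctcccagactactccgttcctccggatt
Sp5 start: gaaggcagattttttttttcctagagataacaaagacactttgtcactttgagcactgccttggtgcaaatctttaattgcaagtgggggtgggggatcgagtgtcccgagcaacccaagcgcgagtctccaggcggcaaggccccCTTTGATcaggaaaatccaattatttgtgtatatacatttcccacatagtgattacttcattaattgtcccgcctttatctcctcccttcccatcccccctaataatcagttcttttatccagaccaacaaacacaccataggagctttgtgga
In the second Tcf7 window, counting from its 5′ end, GTAAACA stood at bases 252 to 258 and AAGGTCA, read on the other strand, at 238 to 244; the Tcf7 peak lay 26 bp from this window. The Tcf7l2 window held ATAAACA on the other strand at bases 182 to 188, with the peak 613 bp past the window. The Sp5 window held CTTTGAT at bases 147 to 153, with the peak 1286 bp past the window. The fourth match, ATAAACA, was in the window of a Lef1 start site 46.0 kb into the gene and 43.5 kb from the Lef1 peak. A match is a description of the letters and not a measured site.

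Among the transcription factor genes, each of the 4 had a peak near a start site. Tcf7 encodes TCF1, known best from T cell development. Its gene, on chromosome 11 from 52246527 to 52283383 (36.9 kb, minus strand), had 4 peaks within 100 kb. The peak at 52282871 to 52283170 was centred 363 bp inside the gene's upstream border and 6 bp before a listed start site, nearer to a start than in the other 7 genes with listed starts. A second peak, at 52239543 to 52239842, lay 6.84 kb past the downstream end and was nearest to Tcf7. The 2 others lay nearest to Skp1, at 1.40 kb, and to Vdac1, at 0.672 kb.

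Tcf7l1 encodes TCF3, which acts mostly as a repressor. It spans 163 kb on chromosome 6, from 72626371 to 72789045 on the minus strand, and was the one gene of the 9 with both an own-border and an inside peak. The border peak, at 72789112 to 72789411, was centred 216 bp before the start site. The inside peak, at 72722294 to 72722593, lay 66.6 kb into the gene, farther from any listed start site of its gene than the other inside peaks. The lncRNA gene Gm31249 had a border 17.4 kb from it. The 2 other peaks of the window lay at the borders of Tgoln1 (296 bp) and Retsat (35 bp). Both classes occurred together in 2.74% of protein-coding genes. Inside peaks occurred in 28.3% of the 2584 genes of 0.5 to 2 times the length of Tcf7l1.

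Tcf7l2, which encodes TCF4, a main partner of beta-catenin in the intestine, is the longest of the 9 genes at 192 kb (chromosome 19, 55741797 to 55933659, plus strand). It had 1 peak in the whole window, the smallest number among the 9 genes, at 55742472 to 55742771. That peak was centred 824 bp inside the border and 811 bp after the first listed start site. A border of the lncRNA gene Gm31734 was closer, at 582 bp. No other protein-coding gene lay within 100 kb of Tcf7l2. No inside peak was listed for Tcf7l2, and 30.4% of the 2171 genes of 0.5 to 2 times its length had one.

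Lef1, on chromosome 3 from 131110297 to 131224357 (114 kb, plus strand), encodes a TCF/LEF factor whose own gene is a WNT target in many tissues. It had 1 peak of its own, at 131112244 to 131112543, 2.10 kb inside the gene. RefSeq lists 4 start sites for Lef1, and this peak was centred 398 bp before the third of them, at 131112791. The promoter window of that start shared 3 bases with the peak, and the first start sites, at 131110297 and 131110323, had no peak within 1 kb. The remaining peak of the Lef1 window lay 1.08 kb from the border of Cyp2u1.

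Among the feedback genes, Axin2, Sp5 and Nkd2 had a peak in the gene. Axin2 encodes a scaffold of the destruction complex and is a widely used readout of canonical WNT signalling. It spans 33.0 kb of chromosome 11, from 108917828 to 108950783 on the plus strand. The peak at 108920415 to 108920714 was 2.74 kb inside the annotated gene, but 215 bp after the one listed start site, at 108920349, and began 17 bp past the promoter window. A second peak, at 108961814 to 108962113, lay 11.2 kb past the end of the gene. Both peaks of the Axin2 window thus had Axin2 as their nearest protein-coding gene.

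Sp5, a zinc-finger transcription factor gene that WNT signalling induces in embryos, is 2.80 kb long (chromosome 2, 70474923 to 70477726, plus strand). Its peak, at 70476258 to 70476557, was centred 1484 bp after the start and 1319 bp before the end, near the middle of the gene. Among the 3368 genes of 0.5 to 2 times the length of Sp5, 1.9% had an inside peak, a class that needs a gene over 2 kb long. The other peak of the window lay at the border of Erich2 (486 bp), 31.4 kb from Sp5.

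Nkd1 and Nkd2 are the mouse naked cuticle genes, whose products bind Dishevelled and dampen WNT signalling, and their peaks differed in place. Nkd2 (chromosome 13, 73818534 to 73847631, minus strand) had a peak at 73846917 to 73847216, centred 565 bp after its start site and 542 bp from the border of the lncRNA gene Gm30303. Nkd1 (chromosome 8, 88521342 to 88594887, plus strand) had no peak in the gene or within 10 kb of it. A peak at 88454256 to 88454555 lay 66.9 kb before the gene and had Nkd1 as its nearest protein-coding gene, although a border of the lncRNA gene Gm39218 was 25.6 kb from it. The peak closest to Nkd1, at 32.8 kb, was 1.09 kb from a border of Snx20. Around Nkd2 the other 3 peaks were nearest to Slc12a7 (2 peaks, 30.8 and 9.95 kb from its border) and Trip13.

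Notum encodes a secreted enzyme that inactivates WNT proteins by removing their lipid. The gene (chromosome 11, 120653788 to 120661193) had the most peaks within 100 kb, 6, and none of its own. Those nearest to it were at Aspscr1, 11.9 kb from Notum and 78 bp from the Aspscr1 border, and at Mafg, 20.1 kb from Notum and 1.28 kb from the Mafg border. A border of the lncRNA gene Gm17586 was closer to the second of these peaks, at 71 bp. The Notum window was also the most gene-rich, with 16 other protein-coding genes against 0 to 6 in those of the other 8 genes. A count of peaks within 100 kb therefore ranked Notum above 92.7% of protein-coding genes, while the peaks in or nearest to it numbered 0.

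**Figure D2:**
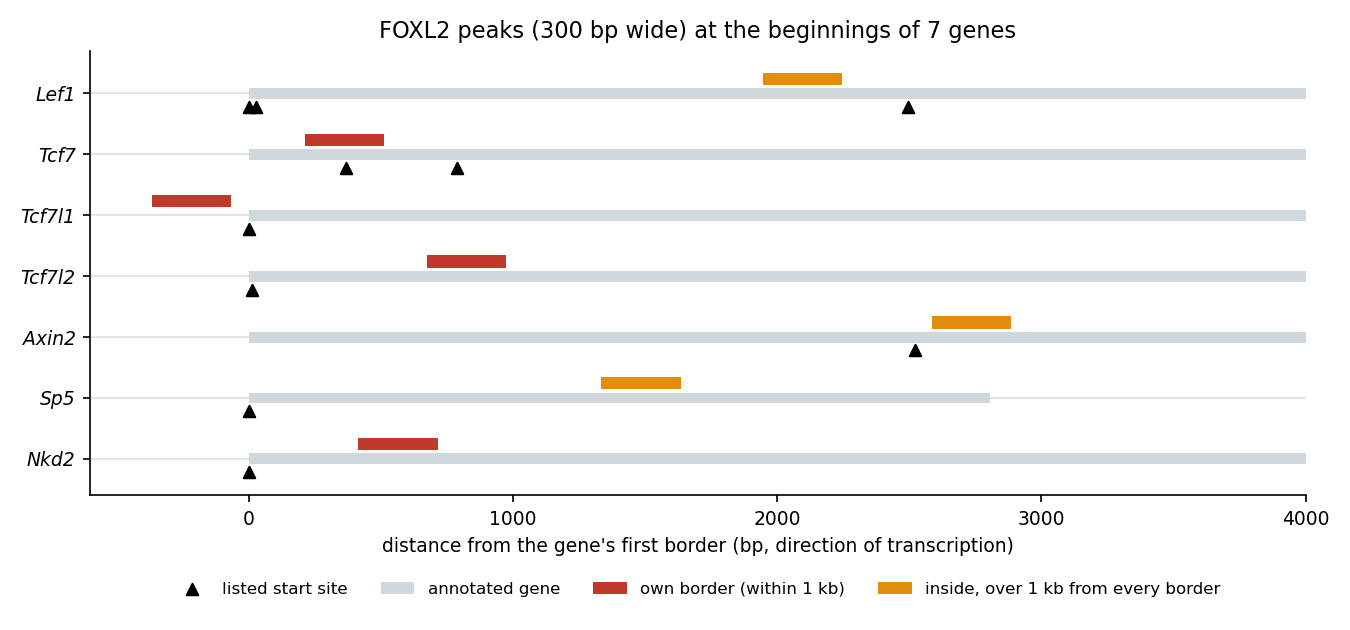
FOXL2 peaks (coloured bars, drawn to their 300 bp width) over the beginning of the 7 genes with an own-border or inside peak, against distance from the gene's first border in bp; triangles are start sites listed by RefSeq and grey bars the annotated gene. The Axin2 peak is 2.74 kb inside the annotated gene but 215 bp past its listed start, and the Lef1 peak precedes the third listed start by 398 bp.

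Set beside all protein-coding genes, the 9 genes had a peak at their own border in 4 cases (44.4%, against 31.3% of 21887 genes), and all 4 peaks were at the end where transcription starts. With genes of all kinds supplying the borders this count was 2, because the Tcf7l2 and Nkd2 peaks were then nearer to lncRNA borders. Tcf7l2 and Nkd2 then had no own-border or inside peak. The own-border count was also 2 with a border distance of 0.5 kb, and 7 with 5 kb. Shares of all protein-coding genes at these other settings are not given here, so these counts cannot be set beside the 31.3%. Inside peaks occurred in 4 genes (44.4% against 9.75%), own-border or inside peaks in 7 (77.8% against 38.3%) and outside peaks nearest to the gene in 3 (33.3% against 6.03%). In the last class, the gap to the next protein-coding gene on the peak's side was 32.5 kb for Tcf7, 275 kb for Axin2 and 159 kb for Nkd1. Lef1 and Tcf7l2 had no such peak beside gaps of 380 and 353 kb. The part of these gaps was not tested. A peak in the gene or within 10 kb occurred in 7 genes (77.8% against 49.6%). At least 1 peak in the own-border, inside or outside-nearest class occurred in 8 genes (88.9% against 41%), the exception being Notum. With a border distance of 5 kb the count of genes with an inside peak was 1, that of Tcf7l1, and the share of all genes at 5 kb is not given here. The median gene length was 36.9 kb for the 9 genes and 17.2 kb for all protein-coding genes, and inside peaks were more frequent in long genes. In genes of 0.5 to 2 times their own length the share with an inside peak was 24.1% for Lef1, 28.3% for Tcf7l1, 10.2% for Axin2 and 1.9% for Sp5, and for the 5 genes without an inside peak it was 11% for Tcf7, 30.4% for Tcf7l2, 17.8% for Nkd1, 9.35% for Nkd2 and 3.74% for Notum. The share with an own-border peak in the same length bands was 40% for Tcf7, 45.8% for Tcf7l1, 44.7% for Tcf7l2 and 38.3% for Nkd2. For the 5 genes without an own-border peak it was 45.9% for Lef1, 39.3% for Axin2, 20.7% for Sp5, 44.5% for Nkd1 and 26.2% for Notum. The part of gene length in the shares of the 9 genes was not tested further. At least 1 peak of any class lay within 100 kb of each of the 9 genes (100% against 76.3%), with a median of 2 peaks for the 9 genes and 2 over all genes, and a mean of 3 against 2.31.

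**Figure D3:**
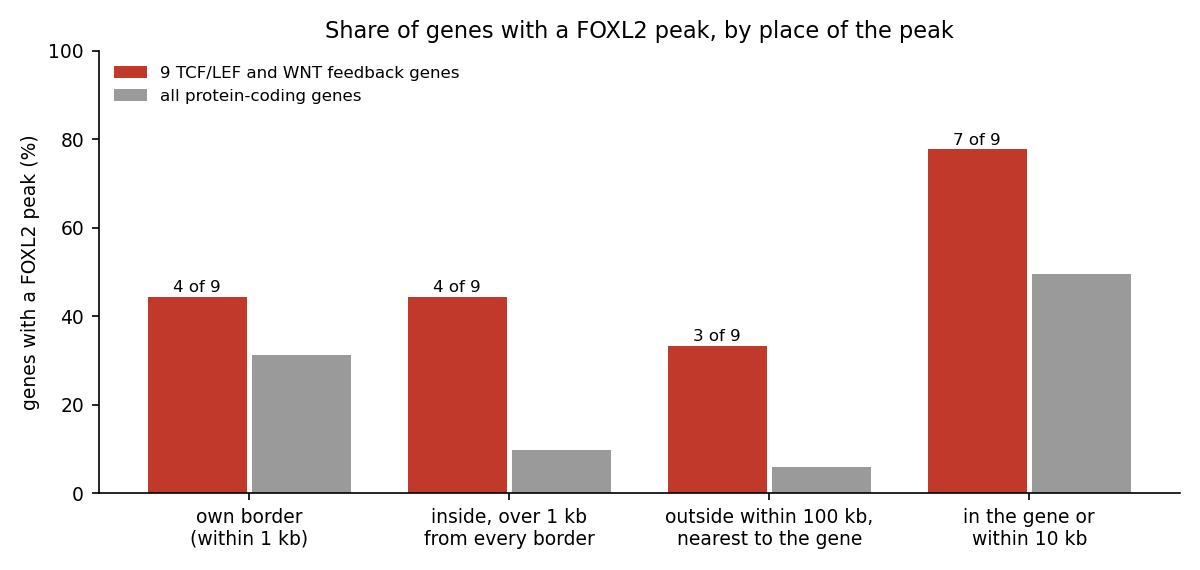
Percentage of genes with a FOXL2 peak of each class, for the 9 TCF/LEF and WNT feedback genes (red, with counts) and for all 21887 protein-coding genes (grey). The 9 genes stand at 44.4%, 44.4%, 33.3% and 77.8%, against 31.3%, 9.75%, 6.03% and 49.6%.

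Start sites gave a second measure, chosen after the peak positions were seen. A peak centre lay within 1 kb of a listed start in 6 of the 8 matched genes (Lef1, Tcf7, Tcf7l1, Tcf7l2, Axin2 and Nkd2), against 38.4% of 17492 protein-coding genes, and within 3 kb in 7, with Sp5 added, against 40.2%. Lef1 and Axin2, which had inside peaks by gene borders, thus had them at internal start sites, and the inside peaks away from a listed start were those of Tcf7l1 and Sp5. In the 7 genes the median distance from the start was 398 bp, against 189 bp over the 7024 protein-coding genes with a peak within 3 kb, whose upper quartile was 336 bp. Lef1 (398 bp), Nkd2 (565 bp), Tcf7l2 (811 bp) and Sp5 (1484 bp) lay beyond that value, while Tcf7 (6 bp), Axin2 (215 bp) and Tcf7l1 (216 bp) did not. The peak was after the nearest listed start in 4 of the 7 genes (Tcf7l2, Axin2, Sp5 and Nkd2), against 71.2% of all such genes. For Tcf7 and Lef1 the sign depends on the start used, since their nearest listed start is inside the gene. Measured from the gene's upstream border, the Tcf7 peak lay 363 bp and the Lef1 peak 2096 bp downstream. A gene with several listed starts has more chances of a near one, and Lef1 has 4.

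**Figure D4:**
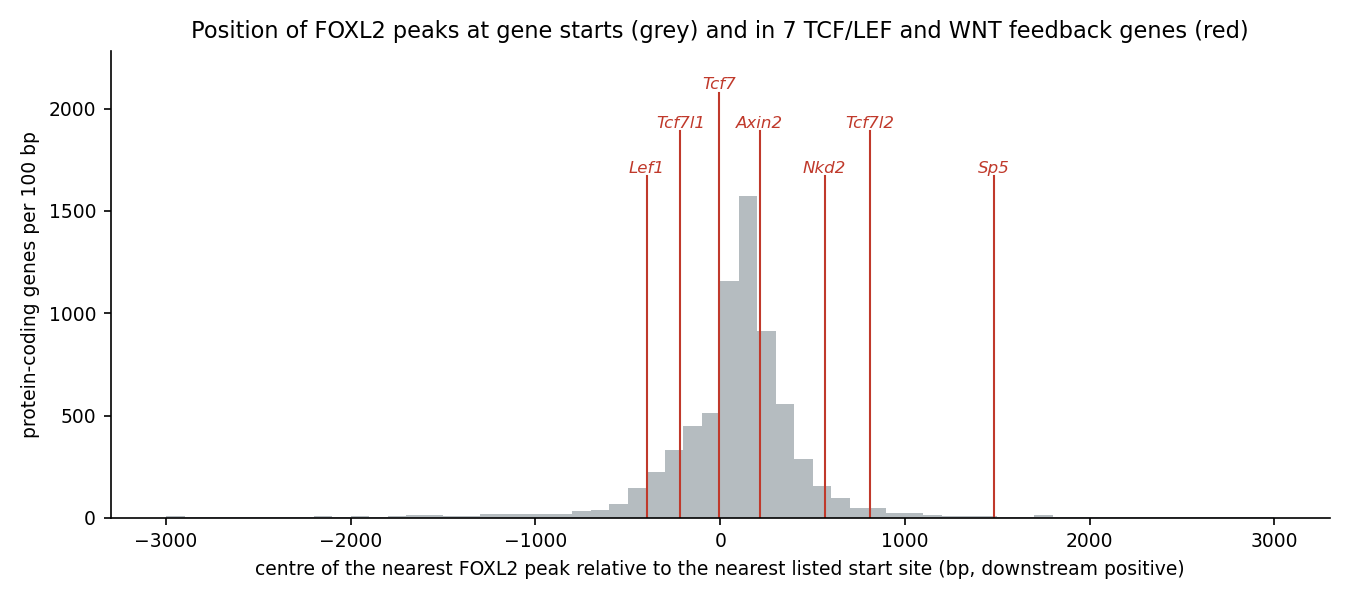
Number of protein-coding genes per 100 bp by the signed distance in bp from the nearest listed start site to the centre of the nearest FOXL2 peak (grey, 7024 genes within 3 kb), with the 7 described genes as red lines whose heights carry no value. The Tcf7 peak lies in the bulk of the distribution, 6 bp before its nearest listed start, which is 369 bp inside the gene's upstream border. Those of Nkd2, Tcf7l2 and Sp5 lie 565, 811 and 1484 bp after their nearest listed start.

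Genes elsewhere in the pathway were counted in 3 lists, chosen like the 9 genes with earlier results of these data known. Gene lengths in the 3 lists were not compared with those of all protein-coding genes, and the part of length in their shares was not tested. Nuclear partners of TCF/LEF factors had an own-border peak in 12 of 21 genes (57.1%) and an inside peak in 5 (23.8%), against 31.3% and 9.75% of all protein-coding genes. Ctnnb1, the gene of beta-catenin itself, had a peak 69 bp from its border. Other own-border peaks were at Nlk (127 bp), a kinase that phosphorylates TCF/LEF proteins, Tbl1x (160 bp), Pygo1 (213 bp), Hipk2 (304 bp) and Pygo2 (374 bp), the Pygo genes encoding coactivators of beta-catenin. An own border can be either end of a gene, and which end it was is not given for the list genes. Hipk2 had another own-border peak, 500 bp inside its other end. Inside peaks were in Tle1 (1.17 kb from the border) and Tle4 (54.4 kb), which encode Groucho-type corepressors, Ctbp2 (35.0 kb), another corepressor gene, Hipk2 (11.9 kb) and Tbl1x (1.63 and 53.5 kb). Bcl9 and Tle3 had no peak within 100 kb.

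Of the destruction complex and Dishevelled list, 10 of 21 genes (47.6%) had an own-border peak and 5 (23.8%) an inside peak, against 31.3% and 9.75% of all protein-coding genes. Those nearest to their border were at Frat1 (41 bp), Tnks (43 bp), Fbxw11 (77 bp), Frat2 (100 bp), Btrc (152 bp) and Tnks2 (171 bp). Fbxw11 and Btrc encode the F-box proteins that mark beta-catenin for degradation, and Tnks and Tnks2 the tankyrases that destabilise AXIN proteins. Axin1, the constitutive relative of Axin2, had an inside peak 7.52 kb from its border. The others were in the casein kinase genes Csnk1a1 (1.24 kb) and Csnk1e (14.0 kb), in Ppp2r5a (5.49 kb) and in Usp7 (18.9 kb). Amer1 had no peak within 100 kb. Among other known WNT target and feedback genes, 14 of 27 (51.9%) had an own-border peak and 7 (25.9%) an inside peak, against the same 31.3% and 9.75%. Znrf3, which encodes a ligase that removes WNT receptors, had both, 7 bp and 29.0 kb from the border. Lgr5 (214 bp), Cdx2 (240 bp), Zeb1 (245 bp), Cdx1 (254 bp) and Wnt4 (327 bp) also had own-border peaks. The inside peaks were in Fst (1.60 kb), Dact1 (1.82 kb), Sp8 (3.02 kb), Prickle1 (4.17 and 20.3 kb), Apcdd1 (13.1 kb), Tnfrsf19 (19.7 kb) and Znrf3. Sp8, a relative of Sp5, thus shared the class of its peak with Sp5. Dkk1, Msx1, Bmp4 and T had no peak within 100 kb.

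**Figure D5:**
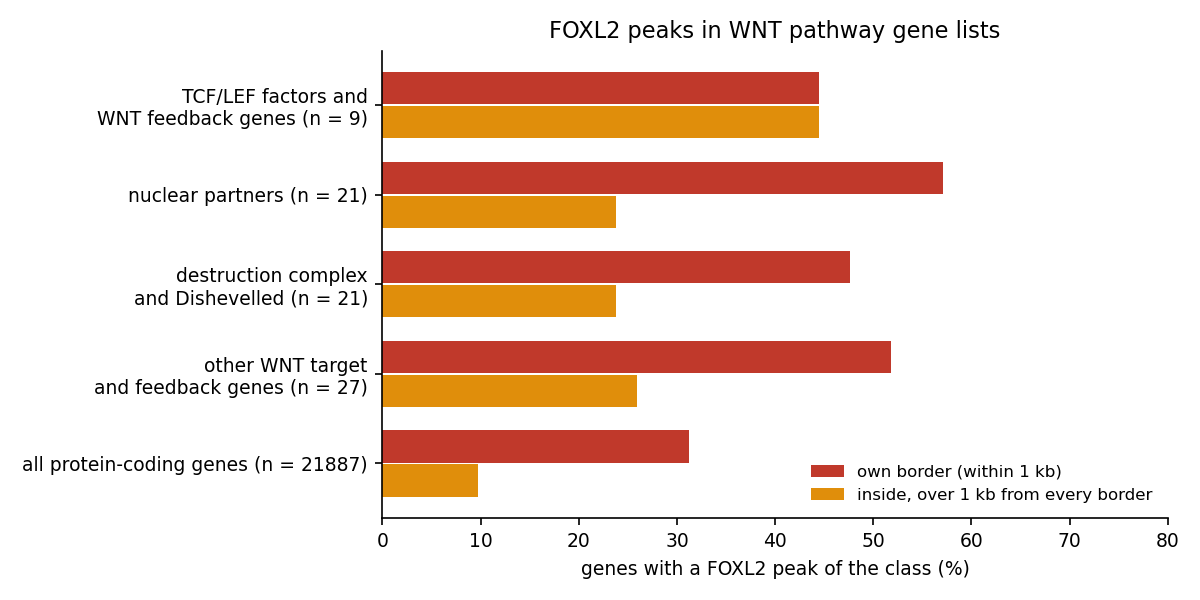
Percentage of genes with an own-border (red) or inside (orange) FOXL2 peak in the 9 TCF/LEF and WNT feedback genes, in 3 lists of other WNT pathway genes and in all protein-coding genes. Own-border shares are 44.4% for the 9 genes, 57.1%, 47.6% and 51.9% for the lists and 31.3% for all genes, and inside shares are 44.4%, 23.8%, 23.8%, 25.9% and 9.75%.

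Many other genes had the same number of own-border, inside and outside-nearest peaks as one of the 9. For Axin2 (1 inside and 1 outside-nearest) these were 92 genes (0.420% of the rest), of which Gata6, Fbxo7 and Gtf2a1 were nearest in length. For Tcf7l1 there were 411, with Aff1, Osbpl3 and Mnat1 nearest in length. Lef1 and Sp5 shared their counts with each other and with 1178 further genes. Nearest in length were Hunk, Fam171a1 and Dennd4a for Lef1, and Gm40469, Hoxa7 and Adrb1 for Sp5. Tcf7l2 and Nkd2 had the commonest pattern with a peak, 1 at the own border alone, shared with 24.7% of genes. With no value per sample, likeness across samples was not measured.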

How the data were processed

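The authors deposited 1 list of FOXL2 peak positions in bp on mm10 for both ChIP samples, with no header, score or value per sample. Group and replicate came from the sample titles. Bowtie 1.2, Picard 1.110, bedtools 2.24.0 and HOMER 4.9 are named in the submitters' processing notes. Which settings and peak threshold applied, and what use was made of replicates and inputs, is not given in the sources used here. Threshold and pooling decide which places count as bound. All 11438 peaks are 300 bp wide, so width carries no information; the 11435 on the autosomes, X and Y entered, with 1-based coordinates and the peak centre.

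Gene borders came from a RefSeq table of GRCm38.p6, the assembly that mm10 denotes, and strand, start sites and promoter sequence from RefSeq windows of the same assembly. Exons, introns, UTRs and sequence under peaks outside the windows were not used here. Counting was done in Python 3.11.15 with pandas 2.3.3 and tested on simulated peaks. No statistical test was made: 1 list without values allows none over samples. The members and the pathway lists were chosen with earlier results of these data known. Named genes were the 9 members, the genes at the 2 nearest other-gene peaks of each, list genes with an inside peak, and up to 6 own-border genes per list. Any other gene was named after its values were seen. Alternatives were other border distances and windows, genes of all kinds, the peak's edge, merged peaks and start sites.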

Additional observations from a re-analysis of the deposited data

How the results depend on the processing

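No paired analysis was possible because the deposited list holds no column per sample, and for the same reason no replicate could be left out. The number of the 9 genes with an own-border peak, 4 in the report, was 2 with borders of genes of all kinds, 2 with a border distance of 0.5 kb (Tcf7 and Tcf7l1 in each case), and 7 with 5 kb. Of the 8 genes with listed starts, 6 had a peak within 1 kb and 7 within 2 kb of any listed start site, settings chosen after seeing the data. The share of all protein-coding genes with listed starts was 38.4% at 1 kb and is not given here at 2 kb. With a border distance of 5 kb, 1 gene (Tcf7l1) had an inside peak, in place of 4. Shares of all protein-coding genes at these other border distances and border kinds are not given here. With borders of genes of all kinds, Tcf7l2 and Nkd2 had no own-border or inside peak. Peaks nearest to other genes numbered 8 in windows of 50 kb and 34 in windows of 200 kb, in place of 16, and all peaks 46 in windows of 200 kb, in place of 27. Counts over all protein-coding genes in windows of 50 and 200 kb are not given here. Matches to the 5 central letters of the motifs stood in 9 of 13 promoter windows, in place of 4, and in 72.2% of all windows. Counting any base of a peak and merging peaks within 500 bp moved no count of the 9 genes or of the pathway lists by over 1.5 times. Depth is unknown, so a missing peak is not evidence of absent binding.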

Other observations

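Over all protein-coding genes, 1740 promoter windows had at least 150 bases under a FOXL2 peak and 16531 had none. The forkhead letters GTAAACA stood in 5.98% of the windows under a peak and in 2.89% of those without, while ATAAACA stood in 3.16% and 4.39%. CTTTGAT or CTTTGAA, the TCF/LEF letters, stood in 4.08% of windows under a peak and in 8.43% of those without, and AAGGTCA in 2.01% and 4.58%. Median GC content was 65.3% in windows under a peak and 53.7% in those without, and its part in these shares was not tested.

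Of the 16 peaks counted for neighbours of the 9 genes, 6 lay around Notum, where 5 of the 16 other protein-coding genes within 100 kb had a peak at their own border, against 31.3% of all protein-coding genes. Other genes with an own-border peak were 4 of 6 around Tcf7l1, 1 of 4 around Tcf7 and 1 of 3 around each of Lef1, Sp5 and Nkd2. They were 1 of 1 around Axin2 and 0 of 2 around Nkd1. These neighbours were also counted where their peak lay outside the 100 kb window and so was not among the 16, as around Axin2 and Lef1. Tcf7l2 had no other protein-coding gene within 100 kb.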
